A study of Mus musculus with 6 samples.

Results

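The Hoxa cluster was followed through the epithelium of the mouse colon. Its 10 members were the entries whose symbol was Hoxa2, Hoxa3, Hoxa4, Hoxa5, Hoxa6, Hoxa7, Hoxa9, Hoxa10, Hoxa11 or Hoxa13, among 24346 gene entries in each library. The epithelial cells came from the distal, middle and proximal colon of wild-type C57BL/6J mice, an inbred strain, and the mice had received no treatment. Each region had 1 female and 1 male library, so that n = 2 per region and 6 in all. The age of the mice is not given in the sources used here, nor whether a library pooled several mice or whether the regions of a sex shared mice. The p-values therefore rest on library-to-library spread alone, part of which may be technical. Levels are FPKM, the authors' fragments per kilobase of transcript, scaled to the mapped fragments of the library. Differences are on the log2(FPKM + 1) scale, which understates changes of genes near 1 FPKM or lower.

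Hox genes encode transcription factors that bind DNA through a homeodomain and give cells their position along the head-to-tail axis. They lie in 4 clusters, and the order of the genes on the chromosome matches the order of their domains along the body: genes at the Hoxa2 end act towards the head, and genes at the Hoxa13 end towards the tail, including the hindgut from which the colon arises. In the adult gut both the mesenchyme and the epithelium can carry such a regional code.

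All 10 members lie on the minus strand of chromosome 6, from 52162417 (Hoxa2) to 52260880 (Hoxa13) in GENCODE M21 for mm10. The annotated Hoxa3 locus, 52169062 to 52213336, spans those of Hoxa4, Hoxa5 and Hoxa6 on the same strand. The antisense transcript Hoxa11os (52244393 to 52249799, plus strand) overlaps Hoxa11 (52242106 to 52245810). Another antisense locus, Hoxaas3 (52175217 to 52215076, plus strand), runs across Hoxa4, Hoxa5 and Hoxa6 and into Hoxa7 (52214491 to 52221854). The library kit keeps strand, but the sources used here do not give how strand was treated in counting, so reads could be shared between these entries and their values are uncertain. By the spacing of the lowest values the depth of the libraries was estimated at 7825000 to 9940000 fragments. Of the epithelial markers, Epcam spanned 743 to 872.5 FPKM and Krt8 spanned 3318 to 4008 FPKM. Krt20, Krt18 and Cdh1 varied more, at 247 to 851, 214 to 373 and 232 to 370 FPKM. Markers of other layers were mixed. Near 0 were Col1a1 of fibroblasts, which reached 0.141 FPKM, Pdgfra, which reached 0.0393 FPKM, and the smooth muscle genes Acta2 and Des, which reached 0.106 and 0.0352 FPKM, and the enteric glia gene Sox10 was listed at 0 in all 6 libraries. Others were at the level of the lower Hoxa genes: Pdgfrb at 2.90 to 4.39 FPKM, Vim at 1.67 to 5.12 FPKM, Dcn at 0.379 to 2.48 FPKM and Tagln at 4.15 to 7.19 FPKM.

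The whole cluster was low in the male proximal library and higher in the other 5, the female proximal library among them. Summed over the 10 members, FPKM was 76.4 in the female and 94.3 in the male distal library, 101.8 and 121.3 in the female and male middle libraries, 87.2 in the female proximal library and 20.1 in the male proximal library. All 10 members had their lowest value of the 6 libraries in the male proximal library, as did 2720 of the 11815 genes kept for testing (at least 1 FPKM in at least 2 libraries). In 6 of the 10 members that value was at least 2-fold below the lowest of the other 5 libraries, which was so for 218 kept genes (1.85%), a measure chosen after the values were seen. The highest value lay in a middle library for 8 members and in the female proximal library for Hoxa2 and Hoxa4. In bulk samples, fewer cells that use a gene and less RNA per cell cannot be told apart.

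**Figure D1:**
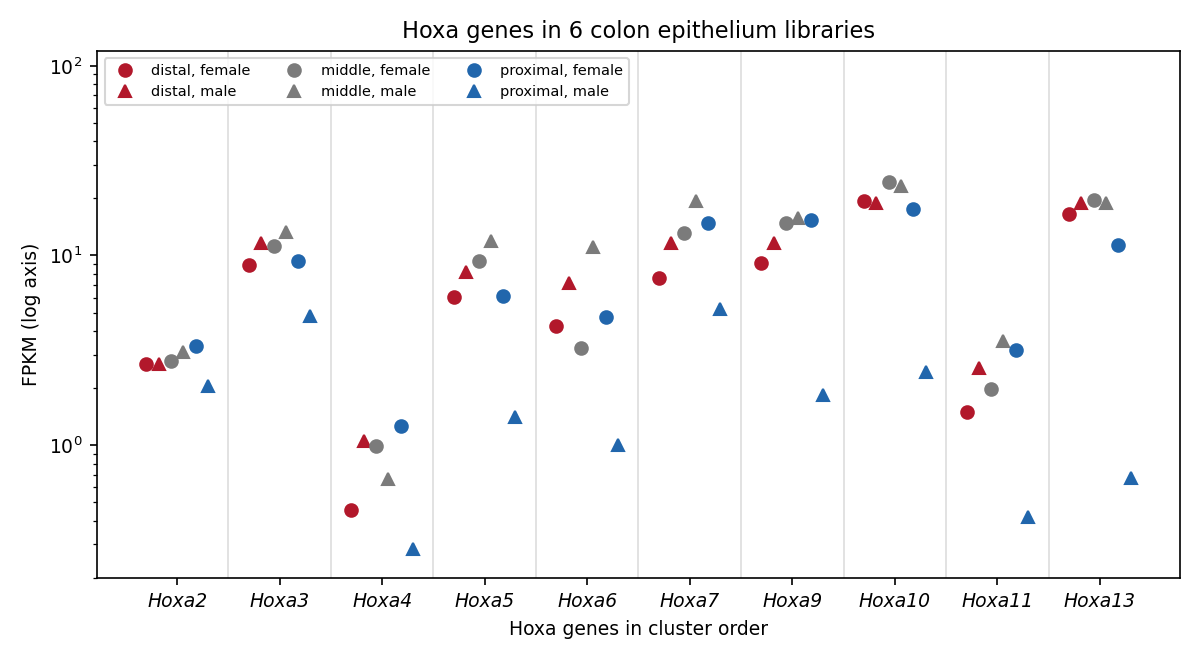
FPKM (log axis) of the 10 Hoxa genes in cluster order, with 1 point per library, coloured by region and shaped by sex. The male proximal library (blue triangle) is the lowest point of every gene, at 0.674 FPKM for Hoxa13 against 11.4 to 19.6 FPKM in the other 5 libraries.

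Hoxa9, Hoxa10, Hoxa11 and Hoxa13 form the posterior part of the cluster, and these genes pattern the hindgut, the limbs and the urogenital tract. Hoxa13, the gene of the cluster that acts nearest the tail end, was at 16.5 FPKM in the female and 18.9 FPKM in the male distal library, at 19.6 and 19.0 FPKM in the female and male middle libraries, and at 11.4 and 0.674 FPKM in the female and male proximal libraries. Distal and middle values lay above both proximal values, and both distal values lay below both middle values. Hoxa13 averaged 17.7 ± 1.69 FPKM in distal, 19.3 ± 0.406 FPKM in middle and 6.02 ± 7.57 FPKM in proximal colon (SD, n = 2 each). The fitted distal minus proximal difference was 2.03 (95% interval 0.19 to 3.88, limma adjusted p = 0.140), and the middle minus proximal difference was 2.16 (95% interval 0.31 to 4.004, limma adjusted p = 0.207).

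Hoxa10, known for its part in the uterus and in blood cells, had the highest mean level of the cluster, 17.7 FPKM over the 6 libraries. It was at 19.4 and 18.8 FPKM in the female and male distal libraries, 24.5 and 23.2 FPKM in the middle libraries and 17.7 and 2.42 FPKM in the proximal libraries. Like Hoxa13 it did not overlap between distal and proximal colon, but its female proximal value was close to the distal ones and its male proximal value far below them. Hoxa10 and Hoxa13 were the 2 of 10 members with both distal values above both proximal values, as were 30.8% of kept genes. The fitted distal minus proximal difference was 1.33 (95% interval -0.17 to 2.83, limma adjusted p = 0.214). Hoxa9, a regulator of blood stem cells, was at 9.15 and 11.7 FPKM in the female and male distal, 14.9 and 15.9 FPKM in the middle, and 15.4 and 1.85 FPKM in the proximal libraries. Its female proximal value was above both distal values and its male one below every other library. Hoxa11, which acts in limb, kidney and uterus development, was low throughout, at 1.496 and 2.56 FPKM in the female and male distal, 1.99 and 3.56 FPKM in the middle and 3.16 and 0.419 FPKM in the proximal libraries.

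Hoxa5, Hoxa6 and Hoxa7 form the central part. Hoxa7 was at 7.60 and 11.7 FPKM in the female and male distal libraries, 13.2 and 19.4 FPKM in the middle libraries and 14.8 and 5.21 FPKM in the proximal libraries. Both distal values were below both middle values, and the proximal values lay on either side of the distal ones. Hoxa5, which acts in the developing lung and gut, was at 6.07 and 8.19 FPKM in the female and male distal, 9.37 and 11.9 FPKM in the middle and 6.14 and 1.42 FPKM in the proximal libraries. Its middle values were the highest, and the female distal and female proximal values were nearly equal. Hoxa6 was at 4.25 and 7.16 FPKM in the female and male distal, 3.26 and 11.1 FPKM in the middle and 4.72 and 1.004 FPKM in the proximal libraries. The female and male middle libraries lay far apart, and all 3 regions overlapped.

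Hoxa2, Hoxa3 and Hoxa4 form the anterior part and act in the hindbrain, the pharyngeal arches and the neck. Hoxa3 was the main one, at 8.86 and 11.6 FPKM in the female and male distal, 11.3 and 13.4 FPKM in the middle and 9.31 and 4.80 FPKM in the proximal libraries. Its middle values were above its proximal ones, and the male proximal value was again the lowest. Hoxa2 was at 2.69 and 2.67 FPKM in the female and male distal, 2.77 and 3.12 FPKM in the middle and 3.34 and 2.06 FPKM in the proximal libraries. The proximal libraries held both its highest and its lowest value. Its fitted distal minus proximal difference of 0.01 had a 95% interval of -0.50 to 0.52. Hoxa4 was the lowest member of the cluster in all 6 libraries, at 0.455 and 1.05 FPKM in the female and male distal, 0.992 and 0.664 FPKM in the middle and 1.26 and 0.282 FPKM in the proximal libraries.

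On the FPKM scale, which is per length, the order of the members was nearly fixed in 5 libraries. Hoxa10 led in 4 of them and Hoxa13 in the male distal library, and the top 5 were Hoxa10, Hoxa13, Hoxa9, Hoxa7 and Hoxa3 in each. Spearman's rho over the 10 members was 0.92 to 0.99 between any 2 of these 5 libraries, and 0.52 to 0.65 between each of them and the male proximal library, as a description over genes of 1 locus. In the male proximal library Hoxa7 and Hoxa3 led, at 5.21 and 4.80 FPKM, and Hoxa13 was the third lowest. With the members of a region ordered by mean FPKM, the libraries of neighbouring genes overlapped in 5 of 9 pairs in distal colon, 5 of 9 in middle colon and 9 of 9 in proximal colon. In distal colon the overlapping run at the top was Hoxa10 and Hoxa13 (19.1 ± 0.379 and 17.7 ± 1.69 FPKM, SD, n = 2 each), and Hoxa9 stood apart below them (10.4 ± 1.79 FPKM). In middle colon Hoxa10 (23.9 ± 0.912 FPKM) stood apart from Hoxa13 (19.3 ± 0.406 FPKM).

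The share of the summed FPKM held by Hoxa9 to Hoxa13 was 60.8% and 55.1% in the female and male distal libraries, 59.9% and 50.8% in the middle libraries, and 54.6% in the female proximal library. In the male proximal library it was 26.6%, and Hoxa2 to Hoxa4 held 35.5%, against 14.1% to 16.3% in the other 5. The make-up of the cluster in that library was thus shifted towards its Hoxa2 end.

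**Figure D2:**
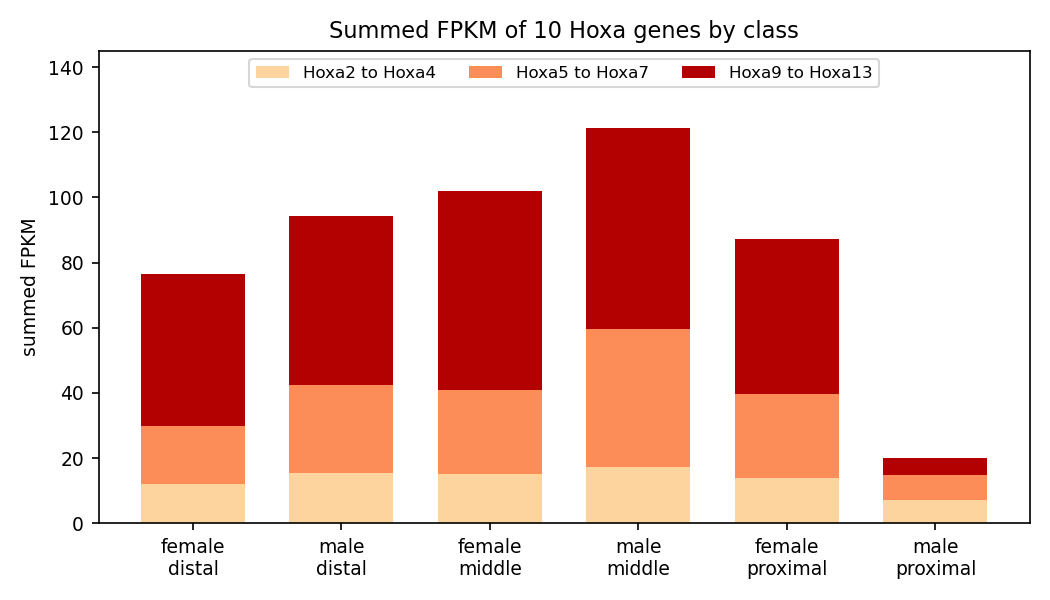
Summed FPKM of the 10 Hoxa genes in each library, stacked by class; the colours mark Hoxa2 to Hoxa4, Hoxa5 to Hoxa7 and Hoxa9 to Hoxa13. The male proximal bar reaches 20.1 FPKM and the other 5 reach 76.4 to 121.3 FPKM, with the posterior class the largest in those 5.

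The gap between the proximal libraries widened unevenly along the cluster, a pattern noticed after the values were seen. The ratio of female to male proximal FPKM was 1.62 for Hoxa2, 1.94 for Hoxa3, 4.34 for Hoxa5, 4.70 for Hoxa6, 2.85 for Hoxa7, 8.34 for Hoxa9, 7.30 for Hoxa10, 7.55 for Hoxa11 and 16.9 for Hoxa13. That of Hoxa4 is not given as a number, since its male proximal value rests on very few fragments. Spearman's rho of this ratio with position was 0.88 over the 10 members, the uncertain Hoxa4 included. It was 0.09 for the female to male ratio in distal and 0.02 in middle colon, as a description. In distal colon these ratios were 0.432 to 1.03, and in middle colon 0.293 to 1.495. Some of the male proximal values rested on few fragments. By the estimated depth and annotated length, these were about 3.13, 5.39, 6.95 and 12.2 for Hoxa4, Hoxa6, Hoxa11 and Hoxa13. Hoxa3, Hoxa7, Hoxa9 and Hoxa10 rested on 59.1 to 222. The estimated depth of this library was 7945000 fragments, against 7825000 in the male distal and 7865000 in the male middle library.

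**Figure D3:**
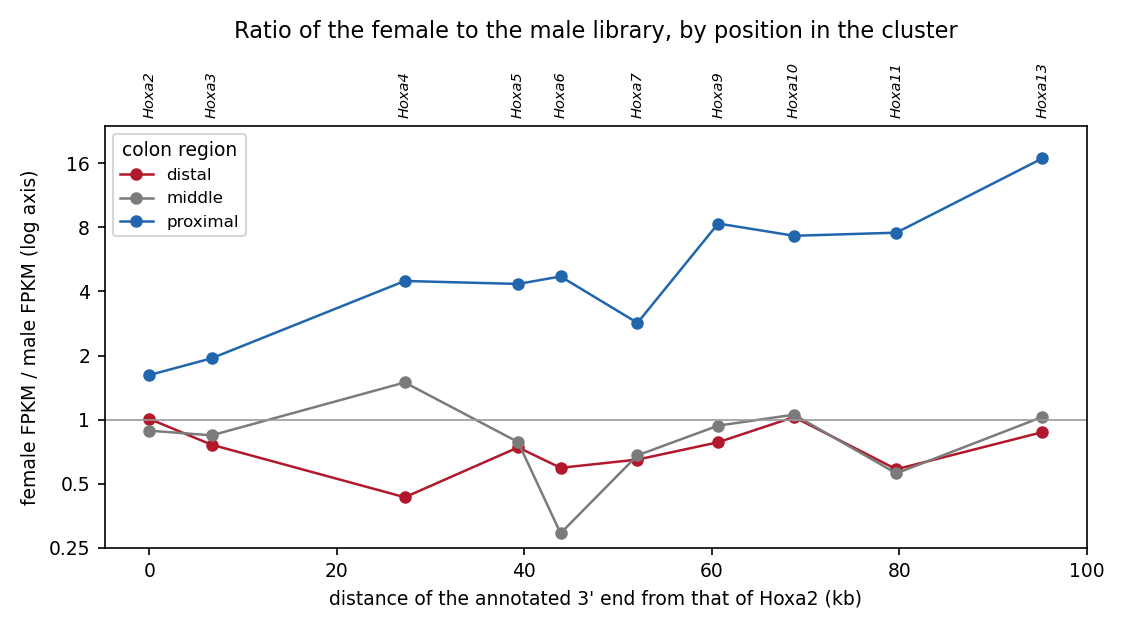
Ratio of female to male FPKM (log axis) for each Hoxa gene against the distance of its annotated 3' end from that of Hoxa2, in kb, with 1 line per region. The proximal line climbs unevenly to 16.9 at Hoxa13, while the distal and middle lines stay between 0.293 and 1.495.

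To show what sequence lies at the ends of this gradient, the 250 bases before the RefSeq start (GRCm38.p6, minus strand, read 5′ to 3′) are given for Hoxa13, which had the widest gap between the proximal libraries, for the inner of the 2 starts of Hoxa10, the most abundant member, and for Hoxa2, which had the narrowest gap. Capitals mark CpG dinucleotides, the sites of DNA methylation. Hoxa13 is at chr6:52260881-52261130, Hoxa10 at chr6:52234940-52235189 and Hoxa2 at chr6:52164832-52165081.
Hoxa13: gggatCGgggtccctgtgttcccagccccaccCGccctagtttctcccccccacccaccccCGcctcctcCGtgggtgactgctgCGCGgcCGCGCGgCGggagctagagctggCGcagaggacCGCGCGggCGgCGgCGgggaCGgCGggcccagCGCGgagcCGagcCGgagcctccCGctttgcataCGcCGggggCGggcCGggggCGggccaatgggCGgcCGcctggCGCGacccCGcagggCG
Hoxa10: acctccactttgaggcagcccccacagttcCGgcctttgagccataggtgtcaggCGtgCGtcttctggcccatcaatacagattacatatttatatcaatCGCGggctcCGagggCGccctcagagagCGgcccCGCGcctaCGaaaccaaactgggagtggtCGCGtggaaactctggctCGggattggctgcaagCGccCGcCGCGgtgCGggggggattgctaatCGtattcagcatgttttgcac
Hoxa2: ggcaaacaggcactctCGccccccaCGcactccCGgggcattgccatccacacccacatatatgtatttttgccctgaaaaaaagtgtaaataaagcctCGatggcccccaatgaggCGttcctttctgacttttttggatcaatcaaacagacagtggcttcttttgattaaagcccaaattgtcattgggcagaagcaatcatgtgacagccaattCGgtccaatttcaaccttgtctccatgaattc

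These stretches held 35, 20 and 6 CpG dinucleotides, against a median of 6 (quartiles 2 and 16) over 32851 RefSeq starts of the mouse. Their GC contents were 80.0%, 59.2% and 46.4%, against a median of 52.4%. Sequences were found for 9 members with 10 starts, and CpG counts did not follow the order of the genes: Hoxa5 had 28, Hoxa6 24, Hoxa3 18, Hoxa11 13, Hoxa7 and the outer Hoxa10 start 7, and Hoxa9 3. The retinoic acid receptor half-site AGGTCA, searched on both strands, was in 0 of the 10 windows and in 14.0% of all. The CDX core TTTATG was in 1 of 10, that of Hoxa7, and in 10.8% of all. For Hoxa7 and Hoxa3 only, the bases just after the start were not found in any GENCODE M21 transcript of the gene. A match is a string of letters and not a binding site, and the windows hold no methylation or binding data of this series.

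The comparison of the colon's ends asked whether the cluster differs by region. Between distal and proximal colon limma called 0 of the 10 members at an adjusted p of 0.05. It called 14.1% of the 11815 kept genes. An unadjusted p under 0.05 was found for 1 member, Hoxa13, and for 3451 of the 11815 kept genes. All 10 fitted distal minus proximal differences were above 0, with a median of 0.63 against 0.01 over all kept genes. Within the sexes the picture split. From the male libraries alone, all 10 members were higher in distal than in proximal colon, by a log2 difference of 0.26 for Hoxa2 to 3.57 for Hoxa13. From the female libraries alone, 2 members were higher in distal colon, Hoxa10 by 0.12 and Hoxa13 by 0.50, and the other 8 were lower, by up to 0.88 for Hoxa7. These single pairs carry no test.

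Between middle and proximal colon limma likewise called 0 of 10 members, against 2.45% of kept genes. An unadjusted p under 0.05 was found for 2164 of the 11815 kept genes and for 4 members, Hoxa3, Hoxa5, Hoxa10 and Hoxa13. These 4 were also the members whose middle values both lay above both proximal values, as did 21.6% of kept genes. The median difference was 0.93 over the members and 0.00 over all kept genes, and both comparisons use the same proximal libraries. For Hoxa5 the difference was 1.48 (SE 0.49, limma adjusted p = 0.193), and it was 2.44 without the female proximal library (limma adjusted p = 0.00116) and 0.52 without the male proximal library (limma adjusted p = 0.2005).

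Between distal and middle colon limma called 0 of 10 members, against 0.499% of kept genes. An unadjusted p under 0.05 was found for 0 members and for 1499 of the 11815 kept genes. All 10 differences were below 0, with a median of -0.28 against 0.01 over all kept genes. In 6 members (Hoxa2, Hoxa5, Hoxa7, Hoxa9, Hoxa10 and Hoxa13) both distal libraries were below both middle libraries, as in 19.1% of kept genes. The drop was widest for Hoxa7, at -0.70 (SE 0.48, limma adjusted p = 0.641). Between female and male libraries, fitted over all regions, limma called 0 of 10 members, against 0.0423% of kept genes, and the adjusted p was 0.561 or more. This fit averages the regions. In proximal colon every member was higher in the female library, and in distal and middle colon most were lower. The median female minus male difference over the members tested was 0.17. It was -0.29 without the female proximal library and -0.25 without the male proximal library.

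**Figure D4:**
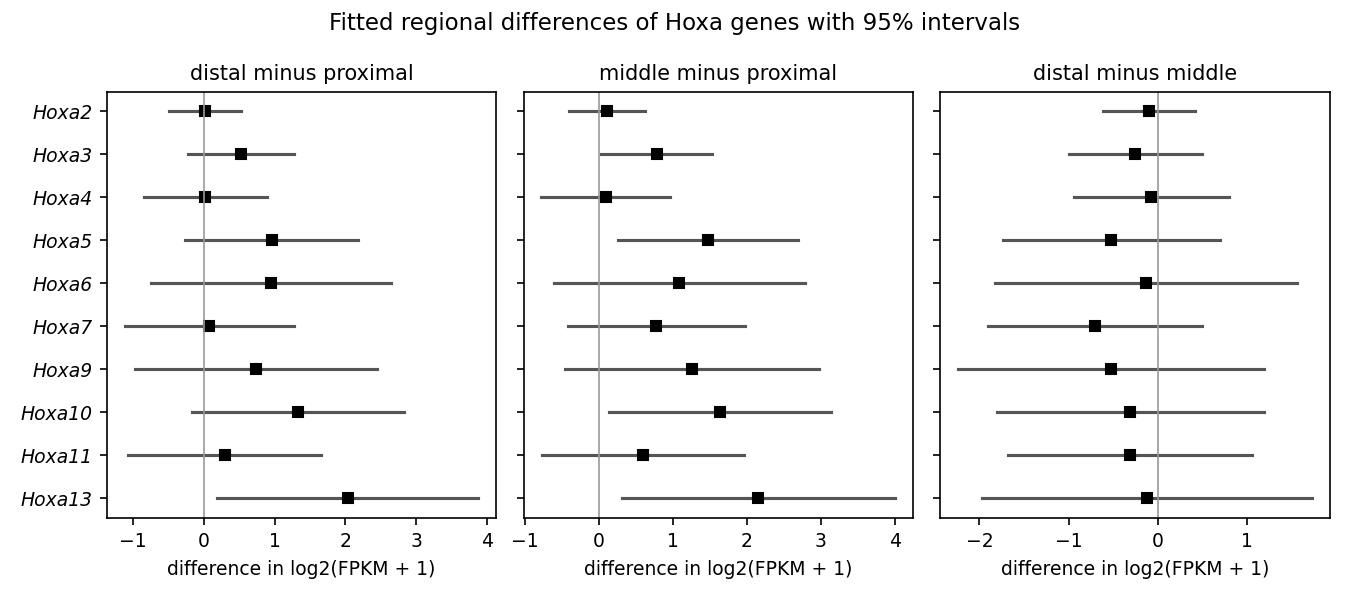
Fitted difference in log2(FPKM + 1) of each Hoxa gene (squares) with its 95% interval (lines) for the 3 regional comparisons, from 6 libraries. Hoxa13 has the largest distal minus proximal value, 2.03, and every distal minus middle interval includes 0.

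The regional calls turned on which proximal library was used. With the female proximal library left out, 9 members passed the filter on low values and 8 of them (all but Hoxa2) were called higher in distal than in proximal colon, where 6.59% of genes were called higher. The same 8 members were called higher in middle than in proximal colon, where 3.75% of genes were called higher. Without that library, the distal minus proximal difference of Hoxa13 was 3.51 (SE 0.17, limma adjusted p = 0.000155), that of Hoxa10 2.53 (SE 0.15, limma adjusted p = 0.000295) and that of Hoxa9 2.097 (SE 0.18, limma adjusted p = 0.00087). With the male proximal library left out instead, Hoxa13 differed by 0.56 (limma adjusted p = 0.0677) and Hoxa10 by 0.13 (limma adjusted p = 0.614). Then 1 of 10 members, Hoxa7, was called lower in distal than in proximal colon, where 7.07% of genes were called lower, at -0.87 (SE 0.15, limma adjusted p = 0.0147). Between middle and proximal colon the median difference over the members was then -0.14, from -0.45 for Hoxa11 to 0.68 for Hoxa13. In these fits the single proximal library was taken to vary like the other libraries.

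Hoxa7 was also called lower in distal than in middle colon once either proximal library was left out, by 0.70 on the log2 scale (limma adjusted p = 0.0319 without the female and 0.0277 without the male proximal library). It was the only member called between distal and middle colon in either fit, where 2.33% and 2.27% of genes were called lower. Leaving out either one takes the difference between the proximal libraries out of the residual spread. Without a distal or middle library Hoxa7 was not called: the difference was -0.22 without the female distal library (limma adjusted p = 0.962), -1.19 without the male distal (0.910), -1.16 without the female middle (0.507) and -0.25 without the male middle library (0.995).

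**Figure D5:**
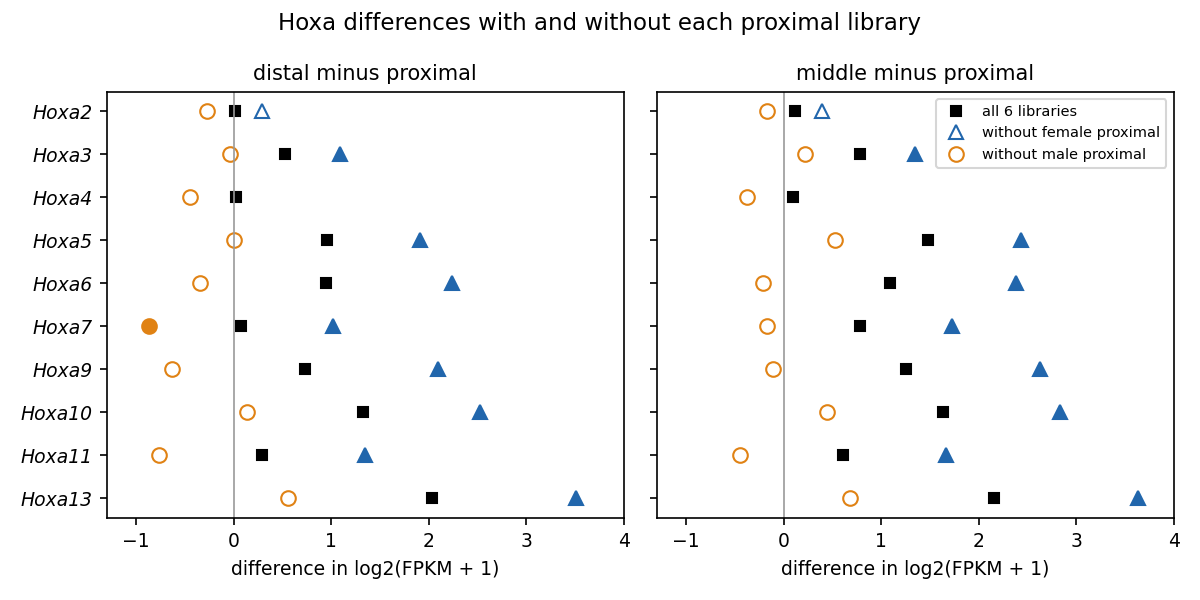
Distal minus proximal and middle minus proximal differences in log2(FPKM + 1) with all 6 libraries (squares), without the female proximal library (triangles) and without the male proximal library (circles); among triangles and circles, filled symbols passed the adjusted threshold, and Hoxa4 was not kept without the female proximal library. For Hoxa13 the distal minus proximal value is 3.51 without the female and 0.56 without the male proximal library.

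Other transcripts of the locus were low in the male proximal library at the Hoxa13 end and not, for Hotairm1, at the Hoxa2 end. Hoxa11os was more abundant than any member in 5 libraries, and below Hoxa7 and Hoxa3 in the male proximal one, at 67.5 and 96.7 FPKM in the female and male distal, 98.1 and 113.7 FPKM in the middle and 52.1 and 3.05 FPKM in the proximal libraries. Hottip, a long noncoding RNA just beyond Hoxa13 that in human cells helps keep the posterior genes active, was at 9.39 and 11.4 FPKM in the distal, 14.9 and 13.1 FPKM in the middle and 5.69 and 0.0588 FPKM in the proximal libraries. Both were low in the male proximal library, where Hottip rested on about 1.25 fragments. Evx1, the homeobox gene further out on that side, was at 1.60 FPKM or below in every library and at 0.0467 FPKM in the male proximal one. Hotairm1, at the other end, was at 3.55 and 3.96 FPKM in the female and male proximal libraries and at 1.61 to 4.04 FPKM in the other 4. Hoxaas3 was at 5.13 FPKM in the male proximal library and at 5.41 to 10.7 FPKM in the other 5. Hoxaas2 stayed at 1.38 FPKM or below, and the entry 5730457N03Rik at 0.278 FPKM or below. Of 9 kept flanking and antisense entries, 1 was called between distal and proximal colon, a share near the 14.1% of all kept genes. It was Skap2, a signalling adaptor gene, at 0.75 (SE 0.15, limma adjusted p = 0.032). Hoxa11os and Hottip differed by 2.48 and 2.09 (limma adjusted p = 0.178 and 0.111).

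The pattern of Hoxa10 over the 6 libraries was shared most closely by St3gal4, Rasd2, Hoxa11os, Glul and Ypel5, with Pearson's r of 0.989 to 0.996 on the log2 scale among 8649 genes with a mean of at least 5 FPKM. In all, 150 of these genes had r of at least 0.9. St3gal4, a sialyltransferase gene, was at 272 and 281 FPKM in the female and male distal, 342 and 339.5 FPKM in the middle and 237 and 68.5 FPKM in the proximal libraries. All 5 of these genes had their lowest value in the male proximal library. Among the members themselves the median r over 45 pairs was 0.87 with all 6 libraries and 0.46 without the male proximal library.

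Other HOX genes had their own profiles in the same libraries. Hoxb13, the counterpart of Hoxa13 in the Hoxb cluster, was at 527 and 457 FPKM in the female and male distal, 339 and 161 FPKM in the middle and 36.2 and 0.562 FPKM in the proximal libraries. Hoxd13 was at 59.7 and 38.4 FPKM in the distal libraries, 0.621 FPKM in the female middle library, 0.441 FPKM in the female proximal library and listed at 0 in the male middle and proximal libraries. In the middle colon, Hoxa13 was thus near its highest level and Hoxd13 at or near 0; whether these profiles differ was not tested. Of 8 kept Hoxb genes 1 was called higher and 7 lower in distal than in proximal colon, and of 7 kept Hoxd genes 4 higher and 3 lower, where 6.47% of all kept genes were called higher and 7.64% lower. By smallest p, the Hoxb calls were led by Hoxb8, Hoxb5, Hoxb6 and Hoxb3, all lower in distal colon, with log2 differences of -3.57, -3.46, -5.28 and -3.75. The Hoxd calls were led by Hoxd13, which rose by 5.35, Hoxd4, which fell by 3.16, and Hoxd11 and Hoxd10, which rose by 2.47 and 2.19. Of the 9 Hoxc genes, 8 were listed at 0 in all 6 libraries, and Hoxc6 reached 0.0804 FPKM.

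Regulators and partners of HOX genes were also read out. TALE homeobox genes include those of the DNA-binding partners of HOX proteins. Of 6 kept ones, 0 were called between distal and proximal colon, against 14.1% of kept genes. Pbx2 was at 15.7 to 17.8 FPKM and Meis3 at 6.65 to 10.9 FPKM over the 6 libraries. The most abundant, Tgif1, was at 29.3 to 48.6 FPKM, with a distal minus proximal difference of -0.35 (limma adjusted p = 0.0723). Of 25 kept Polycomb and trithorax genes, which keep HOX clusters silent or active, 0 were called either, against the same 14.1% of kept genes, with a median difference of -0.05. Cdx2, an intestinal homeobox factor that acts upstream of HOX genes in the embryo, fell in distal colon (-3.42, SE 0.26, limma adjusted p = 0.00277), with 7.25 and 17.3 FPKM in the female and male distal, 43.9 and 93.6 FPKM in the middle and 125 and 136 FPKM in the proximal libraries. Its relative Cdx1 was at 209.9 to 250.2 FPKM throughout and was not called. Of 8 kept retinoic acid genes, a pathway that induces HOX genes in the embryo, 1 was called higher and 3 lower in distal colon, against 6.47% and 7.64% of kept genes. The lower ones were the synthesis enzyme gene Aldh1a1, at 44.4 and 60.9 FPKM in the female and male distal and 335 and 636 FPKM in the proximal libraries, and the receptor genes Rarg and Rxra, which fell by 1.01 and 0.50. The higher one was Aldh1a3, another synthesis enzyme gene, which rose by 1.27 (limma adjusted p = 0.029).

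Levels of other cell types were set beside the low male proximal values. The summed FPKM of 12 mesenchymal markers was 9.46 in the male proximal library and 7.02 to 11.8 in the other 5, and that of 7 smooth muscle markers was 6.90 and 4.59 to 7.35. In the male proximal library most of each sum came from a single gene, Vim at 5.12 FPKM and Tagln at 6.67 FPKM. Vim had its highest value there and Pdgfrb its lowest, 2.90 FPKM, so the sums do not show that the other markers were level. The 10 leukocyte markers summed to 31.2 FPKM, the highest, in the male proximal library, 13.4 FPKM in the female proximal library and 5.26 to 10.3 FPKM in the other 4, led by Gzma at 16.4 FPKM in the male proximal library. Gzma and Cd8a were called lower in distal than in proximal colon (-2.90 and -1.25), as was the smooth muscle gene Tagln (-0.61). Their part in the Hoxa values was not tested. The 9 epithelial markers summed to 11732 FPKM in the male proximal library and to 12589 to 14409 FPKM in the other 5.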

How the data were processed

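RNA of epithelial cells from 3 colon regions was read out in 6 stranded poly(A) libraries. The deposited values are FPKM, which the authors computed per library; per the submitters' processing notes, Cuffdiff 2.2.1, TopHat2 2.1.1, SAMtools 0.1.18 and Bowtie2 2.2.8 were run against mm10. The gene annotation, the settings and the handling of strand were not given in the sources used here. The members and gene lists were chosen with earlier results of these data known.

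FPKM were taken as log2(FPKM + 1). Entries with at least 1 FPKM in at least 2 libraries were kept (11815 of 24346, all 10 members among them). limma 3.58.1 (R 4.3.3) fitted region and sex additively with a variance trend, leaving 2 residual and 3.49 prior degrees of freedom. P-values were adjusted by Benjamini-Hochberg over all kept genes at 0.05. The fit was tested on simulated data. Replicate numbers only name samples; the sex term blocks by sex.

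Depth was estimated from the steps between FPKM values under 0.2 in genes with 1 annotated transcript over 1500 bases, assuming fragments of 200 bases. In each library 74.5% to 79.6% of these values came within 0.1 of a whole number of fragments, so depths are approximate, and intervals cover the spread between libraries only. An FPKM of 0 can be a failed estimate. Other settings tried were quantile or median-ratio scaling, a 0.1 pseudocount, a 5 FPKM minimum or none, a fit without the variance trend or the sex term, and each library left out in turn.

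All members were named. From other lists, called genes were named, at most 4 per list, with neighbours of the cluster; other genes are named as context, chosen after their values were seen. Likeness was Pearson's r with the member of highest mean. Promoters and coordinates come from RefSeq (GRCm38.p6) and GENCODE M21.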

Additional observations from a re-analysis of the deposited data

Results flagged for a closer look

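Several members moved in opposite directions in the sexes, with 1 library per region and sex, so that these differences were not tested. How many of all kept genes did so was not counted. Values are the female log2 difference minus the male one. For distal minus proximal colon, 8 of 10 members were lower in distal colon in the female libraries and higher in the male ones: -0.49 for Hoxa2, -1.19 for Hoxa3, -1.32 for Hoxa4, -1.94 for Hoxa5, -2.15 for Hoxa6, -1.91 for Hoxa7, -2.85 for Hoxa9, -2.06 for Hoxa11. For middle minus proximal colon, 6 members were lower in middle colon in the female libraries and higher in the male ones: -0.63 for Hoxa2, -0.56 for Hoxa4, -3.02 for Hoxa6, -1.87 for Hoxa7, -2.61 for Hoxa9, -2.16 for Hoxa11. Both sets share the proximal libraries. For distal minus middle colon Hoxa4 was lower in distal colon in the female libraries and higher in the male ones, and Hoxa6 was the other way round: -0.76 for Hoxa4, 0.87 for Hoxa6.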

How the results depend on the processing

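Replicate numbers were given in accession order, and since each region has 1 library of each sex, the fit with the sex term is the same as a fit with a replicate block; leaving the term out left 0 members called in each regional comparison. Under another pseudocount, filter, scaling or model, the directions of the member differences held, in the members each setting tested, except for Hoxa4 in distal minus middle colon, which was 0.11 with quantile normalization (a minimum of 5 FPKM tested 7 members, without Hoxa2, Hoxa4 and Hoxa11); the count of members called stayed 0 in each comparison. Counts over all genes moved more: between middle and proximal colon 289 became 4 with no filter, 187 with no variance trend and 24 with sex left out of the model, and between distal and middle colon 59 became 2, 29 and 17. The cause was not tested.

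Leaving out each library in turn, limma called 0 to 8 members between distal and proximal colon, 0 to 8 between middle and proximal colon and 0 to 1 between distal and middle colon. Over all genes it called 334 (without the male distal library; 779 without the female distal one) to 1518 between distal and proximal colon, 0 (without the female middle library, where 1412 genes had an unadjusted p under 0.05; 61 without the male middle one) to 777 (without the female proximal one) between middle and proximal colon, and 0 (without the male distal library, where 736 did) to 426 (without the female proximal one) between distal and middle colon. Between female and male libraries it called 3 to 25. Of the member differences, those that changed sign ran, for distal minus proximal colon, -0.27 to 0.29 for Hoxa2, -0.033 to 1.09 for Hoxa3, -0.45 to 0.54 for Hoxa4, -0.34 to 2.24 for Hoxa6, -0.87 to 1.02 for Hoxa7, -0.63 to 2.097 for Hoxa9, -0.76 to 1.35 for Hoxa11. For middle minus proximal colon they ran -0.17 to 0.39 for Hoxa2, -0.37 to 0.14 for Hoxa4, -0.21 to 2.38 for Hoxa6, -0.17 to 1.73 for Hoxa7, -0.11 to 2.62 for Hoxa9, -0.45 to 1.66 for Hoxa11. For distal minus middle colon they ran -0.29 to 0.093 for Hoxa2, -0.58 to 0.077 for Hoxa3, -0.12 to 0.44 for Hoxa4, -1.11 to 0.84 for Hoxa6, -1.297 to 0.24 for Hoxa9, -0.92 to 0.30 for Hoxa10, -0.87 to 0.26 for Hoxa11, -0.95 to 0.70 for Hoxa13. All of the first 2 sets changed sign without the male proximal library, and Hoxa2, Hoxa7, Hoxa9 and Hoxa11 (distal minus proximal) and Hoxa2 (middle minus proximal) also did so without the male distal or male middle library. The distal minus middle changes came without the female distal or the male middle library. The others kept their sign: distal minus proximal 0.00033 to 1.91 for Hoxa5, 0.13 to 2.53 for Hoxa10, 0.56 to 3.51 for Hoxa13; middle minus proximal 0.22 to 1.34 for Hoxa3, 0.52 to 2.44 for Hoxa5, 0.44 to 2.83 for Hoxa10, 0.68 to 3.64 for Hoxa13; distal minus middle -1.02 to -0.022 for Hoxa5, -1.19 to -0.22 for Hoxa7.

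With 2 libraries a region, a leave-out fit has 1 residual degree of freedom. Values under 1 FPKM, and the male proximal values of Hoxa4, Hoxa6 and Hoxa11, rest on few fragments. Sex, animal and dissection cannot be told apart within a region.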
